A study of Mus musculus with 21 samples.

Results

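The complement and coagulation factors are plasma proteins that the liver makes and secretes. The 38 genes described here, chosen by symbol among the 55418 gene symbols counted in each library, encode 21 proteins of the complement system and 17 proteins of blood clotting, clot removal and related plasma functions. Counts came from RNA sequencing of whole liver from 21 mice. A total of 4 groups were formed by genotype and diet, where KO stands for mice with Mboat7 deleted in hepatocytes and WT for the wild-type mice of the labels. The KO HFMCD group held 4 livers and the WT HFMCD group 4 livers, from mice that were 6 to 8 weeks old when a 6-week feeding of a high-fat, low-methionine, choline-deficient diet (HFMCD) began. The KO chow group held 7 livers and the WT chow group 6 livers, from mice on chow at 10 weeks of age. The livers were perfused with PBS before extraction. The Cre driver, the deleted exons, the sex and the strain are not given in the sources used here, and the treatment text spells the diet HFCDD. Diet went together with age at sampling and with separate ranges of animal numbers, so these cannot be told apart. The Mboat7 protein is a membrane enzyme that returns arachidonic acid to lysophosphatidylinositol and so shapes the phosphatidylinositol pool.

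Complement is a cascade of plasma proteases and binding proteins. The classical route starts when C1q bound to antibody activates the proteases C1r and C1s, the lectin route starts when mannose-binding lectins activate the MASP proteases, and the alternative route amplifies through factors B and D. All routes cleave C3 and then C5, after which C5b, C6, C7, C8 and C9 assemble into a pore in the target membrane. Clotting runs through a contact arm (factor XII, prekallikrein, kininogen, factors XI and IX) and a tissue factor arm (factor VII), which meet at factor X. Factor Xa with factor V turns prothrombin into thrombin, thrombin turns fibrinogen into fibrin, protein C and protein S slow the cascade, and plasmin from plasminogen dissolves the clot. Hepatocytes make most of these proteins, and some of them are acute-phase proteins whose transcripts respond to cytokines such as interleukin-6.

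Library totals ran from 22617598 to 25822972 counts on HFMCD and from 17502231 to 23058789 counts on chow, and albumin took 5.39% to 8.96% of the counts of a library. Mboat7, counted over the whole gene, was lower in KO livers on HFMCD by a log2 fold change of -0.94 (SE 0.09, adjusted p = 7.48e-06 by edgeR) and on chow by -0.76 (SE 0.07, adjusted p = 3.92e-06 by edgeR), with no overlap between KO and WT libraries on either diet. Of the 38 genes, 37 passed the low-count filter, among 15677 genes tested in all, and Cfd did not. Levels are given as CPM, the usual depth-scaled unit, computed over the TMM-scaled counts of the tested genes. Fold changes are log2 values with their standard error (SE). A gene is called when the edgeR quasi-likelihood p, adjusted by Benjamini-Hochberg over all 15677 genes, is under 0.05. The p-values measure the spread between livers. In whole liver, fewer cells of a type and less RNA per cell cannot be told apart. On HFMCD 9 hepatocyte marker genes summed to 92490 to 100100 CPM in KO and 95520 to 110200 CPM in WT livers. On chow they summed to 101900 to 126700 CPM in KO and 97670 to 144000 CPM in WT livers. Alb made up most of this sum, with means of 76376 CPM in KO HFMCD and 82021 CPM in KO chow livers. For HFMCD against chow, 7 of the 9 were called lower in KO livers (77.8%), 6 in WT livers (66.7%) and 0 higher. Over all tested genes 36% were called lower in KO and 33.6% in WT livers. The median log2 fold change of the 9 was -0.74 in KO and -0.48 in WT livers. The tenth marker on that list, Tf, was not analysed here. The 10 Kupffer cell and macrophage markers summed to 1431 to 1865 CPM in KO and 1539 to 1851 CPM in WT livers on HFMCD. On chow they summed to 341 to 470.2 CPM in KO and 230.4 to 662 CPM in WT livers. With HFMCD 8 of the 10 were called higher in each genotype (80%), beside 33.7% of all tested genes in KO and 29% in WT livers. Gpnmb averaged 578 CPM in KO and 459 CPM in WT livers on HFMCD, against 0.782 and 0.534 CPM on chow. Clec4f averaged 145 CPM on HFMCD against 141 CPM on chow in KO livers, and 191 against 126 CPM in WT livers. Timd4 averaged 7.33 against 8.00 CPM in KO and 7.97 against 9.56 CPM in WT livers. The 10 stellate cell and fibroblast markers summed to 1599 to 1837 CPM in KO and 1230 to 1511 CPM in WT livers on HFMCD, against 226 to 546 CPM in KO and 222 to 318.6 CPM in WT livers on chow. The part these cell types had in the results below was not tested.

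The 38 transcripts differed widely in level. In WT chow livers, reads per kilobase of annotated exon and unit of library depth (RPKM) were highest for Ahsg, the gene of fetuin-A, at 3442 RPKM. C3, the protein on which all complement routes converge, followed at 1823 RPKM, and the fibrinogen chains Fgg, Fga and Fgb stood at 1650, 1368 and 1242 RPKM. At the low end were C6 at 6.44, Cfd at 3.97 and Cfb at 0.975 RPKM. The place of Cfb is uncertain, since 2246 of its 2825 exon bases are shared with Gm20547, a gene listed at 0 counts. The Cfd mean rests on WT chow replicate 3, and without that liver Cfd stood at 0.0432 RPKM, below Cfb at 0.917 RPKM. Ahsg, C3 and the fibrinogen chains held 57.2% to 66.2% of all counts of the 38 genes. Together the 38 genes took 3.74% ± 0.22 of the TMM-scaled total in KO HFMCD livers (SD, n = 4) and 3.96% ± 0.156 in WT HFMCD livers (SD, n = 4), against 4.46% ± 0.374 in KO chow livers (SD, n = 7) and 4.65% ± 0.285 in WT chow livers (SD, n = 6). Relative to the unscaled total counts the gap was smaller, with shares of 4.12% ± 0.159 in KO HFMCD and 4.16% ± 0.106 in WT HFMCD livers, against 4.33% ± 0.275 in KO chow and 4.36% ± 0.34 in WT chow livers.

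Many of these transcripts were called between the diets, which also differ in age at sampling, and they moved in both directions. Between KO and WT livers 0 of the 37 were called by edgeR on either diet, which does not show that they were unchanged. In KO livers 23 of 37 genes were called for HFMCD against chow, 8 higher and 15 lower. In WT livers 25 of 37 were called, 10 higher and 15 lower. These counts stand beside a liver-wide response: 69.7% of all tested genes were called in KO livers (33.7% higher, 36% lower) and 62.5% in WT livers (29% higher, 33.6% lower). The shares of the 37 genes called, 62.2% in KO and 67.6% in WT livers, were near that background and are not a result about these genes. The median log2 fold change over the 37 was -0.12 in KO and -0.07 in WT livers, against -0.02 and -0.05 over all tested genes. With upper-quartile scaling the split was 12 higher and 13 lower in KO livers and 12 higher and 12 lower in WT livers, the calls of Fgg and Mbl1 in KO and of C3, Masp2 and Mbl2 in WT livers were lost, and the WT median over the 37 turned to 0.0046 against 0.02 over all genes. By function, 7 of 20 tested complement genes rose and 5 fell in KO livers, and 9 rose and 5 fell in WT livers. Of the 17 clotting and other plasma genes, F11 was called higher and 10 were called lower in each genotype.

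The diet comparisons in KO and in WT livers use different libraries, and 22 of the 37 genes were called in both, all 22 in the same direction. That is 59.5% of the 37, beside 56.6% of all tested genes called in both. Higher in both were Masp1, Cfb, Cfp, C6, C8a, C9, C4bp and F11. Lower in both were Mbl2, Masp2, C8g, Vtn, F12, Klkb1, Kng1, F7, F10, F2, Fgb, Fgg, Proc and Plg. Mbl1 was called in KO livers only, and C1s1, C2 and C3 in WT livers only; the tests of these differences between genotypes are given with the knockout comparison. Not called in either genotype were C1ra, C4b, Hc, C8b, Cfi, F9, F5, Fga, F13b, Pros1 and Ahsg.

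**Figure D1:**
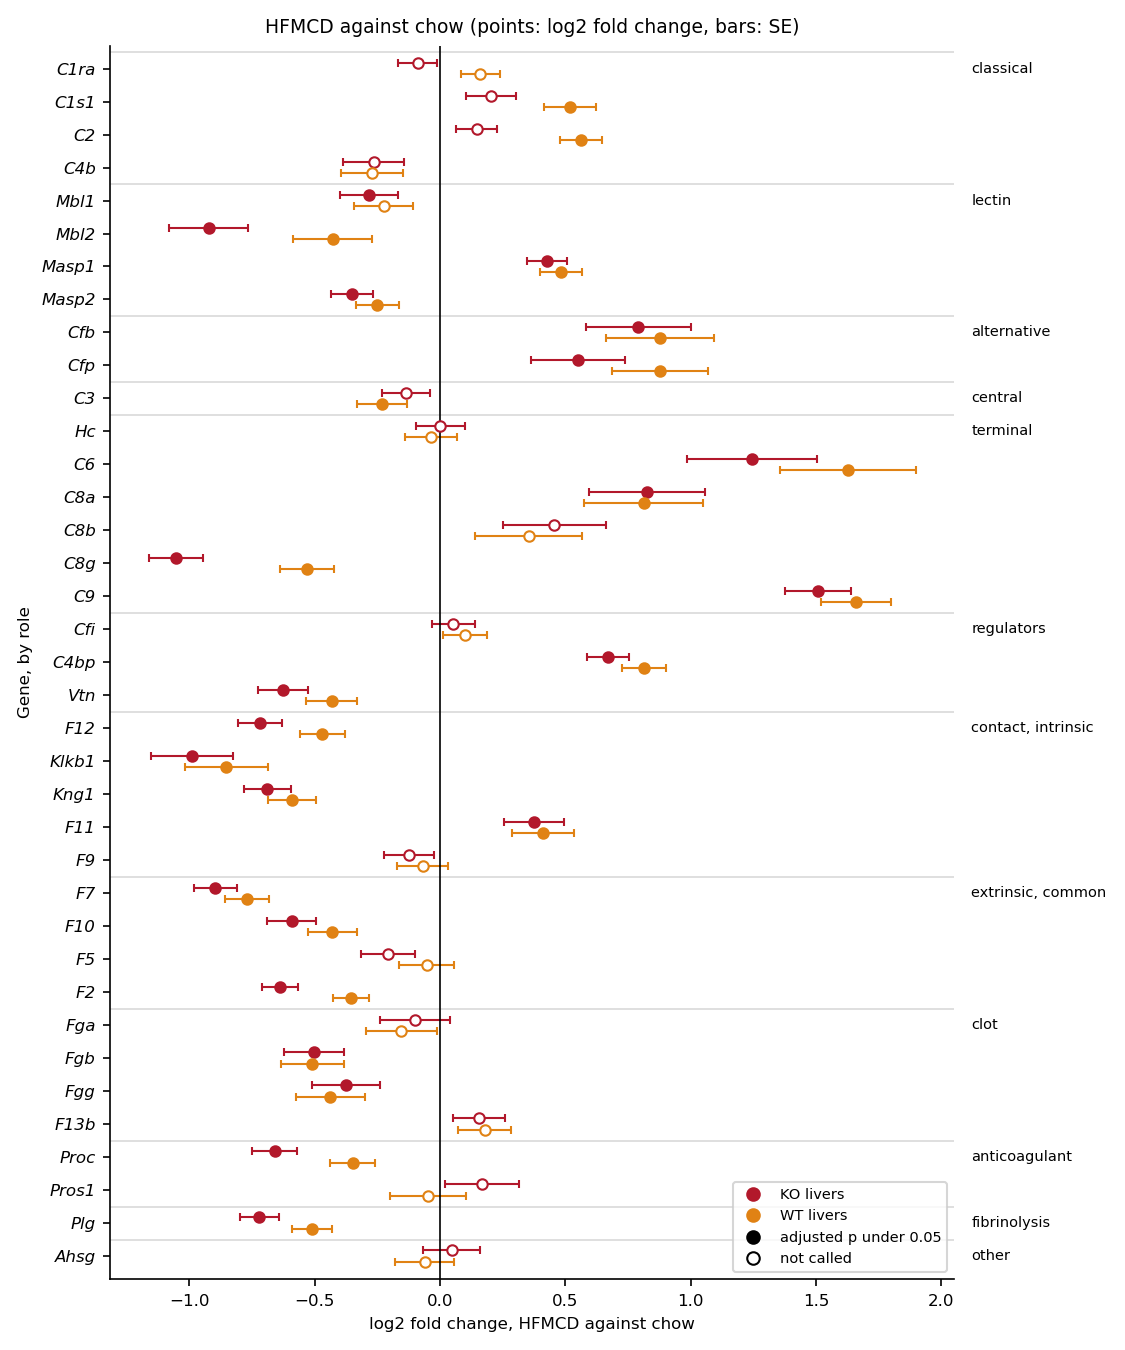
Log2 fold change of HFMCD against chow (x axis, bars are SE) for the 37 tested complement and clotting genes (y axis, grouped by role), in KO livers (dark red) and WT livers (orange). Filled points were called. C9 and C6 lie furthest right at 1.51 and 1.25 in KO and 1.66 and 1.63 in WT livers, and C8g, Klkb1, Mbl2 and F7 lie furthest left in KO livers, at -1.05, -0.99, -0.92 and -0.90.

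The terminal pathway held the largest rises and, in KO livers, the largest fall. C9 encodes the subunit that polymerises into the wall of the membrane pore. On HFMCD, C9 stood at 361, 209.8, 465 and 394 CPM in the KO livers and 414, 435, 492 and 453 CPM in the WT livers, against 104.9 to 147 CPM (median 127) in KO chow livers and 119.7 to 165 CPM (median 142) in WT chow livers. No HFMCD library came down to the chow range, and KO HFMCD replicate 2, at 209.8 CPM, was well below the other HFMCD livers. Its log2 fold change for HFMCD against chow was 1.51 (SE 0.13, adjusted p = 8.17e-10 by edgeR) in KO and 1.66 (SE 0.14, adjusted p = 6.32e-10 by edgeR) in WT livers, with a range of 1.36 to 1.70 in KO livers when any 1 library was left out. C6, the subunit that binds C5b, was at 56.6, 26.1, 65.1 and 93.3 CPM in the KO livers and 67.4, 76.9, 70.9 and 68.2 CPM in the WT livers, against 18.8 to 34.9 CPM (median 23.3) in KO chow livers and 11.7 to 33.5 CPM (median 23.0) in WT chow livers. The WT groups did not overlap, while KO HFMCD replicate 2 fell inside the chow range and the other 3 KO livers were above it. C6 rose with HFMCD by 1.25 (SE 0.26, adjusted p = 0.000313 by edgeR) in KO and 1.63 (SE 0.27, adjusted p = 3.95e-05 by edgeR) in WT livers.

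C8 is built from 3 chains with separate genes, and these did not move together. C8a, the chain that enters the membrane, was at 245, 190.5, 208 and 286 CPM in the KO livers and 272, 269, 282 and 273 CPM in the WT livers, against 86.8 to 174 CPM (median 143) in KO chow livers and 77.3 to 249 CPM (median 144) in WT chow livers. HFMCD and chow livers did not overlap in either genotype, and the chow livers spread widely. C8a rose with a log2 fold change of 0.83 (SE 0.23, adjusted p = 0.00358 by edgeR) in KO and 0.81 (SE 0.24, adjusted p = 0.00609 by edgeR) in WT livers. C8g, which encodes the lipocalin-like chain, was at 188, 151, 193 and 158 CPM in the KO livers and 209.8, 255, 268 and 235 CPM in the WT livers, against 320.04 to 424 CPM (median 356) in KO chow livers and 296 to 409 CPM (median 336.0) in WT chow livers. All HFMCD livers lay below all chow livers. C8g fell with a log2 fold change of -1.05 (SE 0.11, adjusted p = 8.24e-09 by edgeR) in KO and -0.53 (SE 0.11, adjusted p = 0.000171 by edgeR) in WT livers. C8b, the neighbour of C8a on chromosome 4 with no protein-coding gene between them, was at 109.6, 81.3, 144 and 140.0 CPM in the KO livers and 126, 129, 158 and 129.7 CPM in the WT livers, against 47.7 to 115 CPM (median 86.1) in KO chow livers and 79.8 to 148 CPM (median 99.6) in WT chow livers. Its groups overlapped, and its log2 fold changes of 0.46 (SE 0.21, adjusted p = 0.0556 by edgeR) and 0.35 (SE 0.21, adjusted p = 0.156 by edgeR) in KO and WT livers were not called. Leaving out any 1 of KO HFMCD replicate 2 and KO chow replicates 3, 4 and 6 brought it to a call in KO livers, at 0.52 to 0.61 (edgeR adjusted p = 0.0164 to 0.041), and leaving out WT chow replicate 5 did so in WT livers at 0.52 (edgeR adjusted p = 0.0408).

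Per exon length, the ratio of C8g to C8b transcripts was 2.58 ± 0.572 in KO HFMCD livers and 3.05 ± 0.233 in WT HFMCD livers (SD, n = 4 each), against 7.46 ± 1.96 in KO chow livers (SD, n = 7) and 5.99 ± 1.85 in WT chow livers (SD, n = 6). The ratio of C9 to C8b was 2.97 ± 0.338 in KO HFMCD and 3.31 ± 0.155 in WT HFMCD livers, against 1.52 ± 0.361 in KO chow and 1.39 ± 0.29 in WT chow livers. In both ratios the HFMCD and chow libraries of a genotype did not overlap. Hc, the mouse gene of C5, whose larger fragment starts pore assembly, was at 598, 545, 488 and 631 CPM in the KO livers and 655, 615, 644 and 636 CPM in the WT livers, against 511 to 591 CPM (median 569) in KO chow livers and 494 to 833 CPM (median 651) in WT chow livers. The groups overlapped throughout, with log2 fold changes of 0.0016 (SE 0.10, adjusted p = 0.99 by edgeR) in KO and -0.04 (SE 0.10, adjusted p = 0.773 by edgeR) in WT livers.

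**Figure D2:**
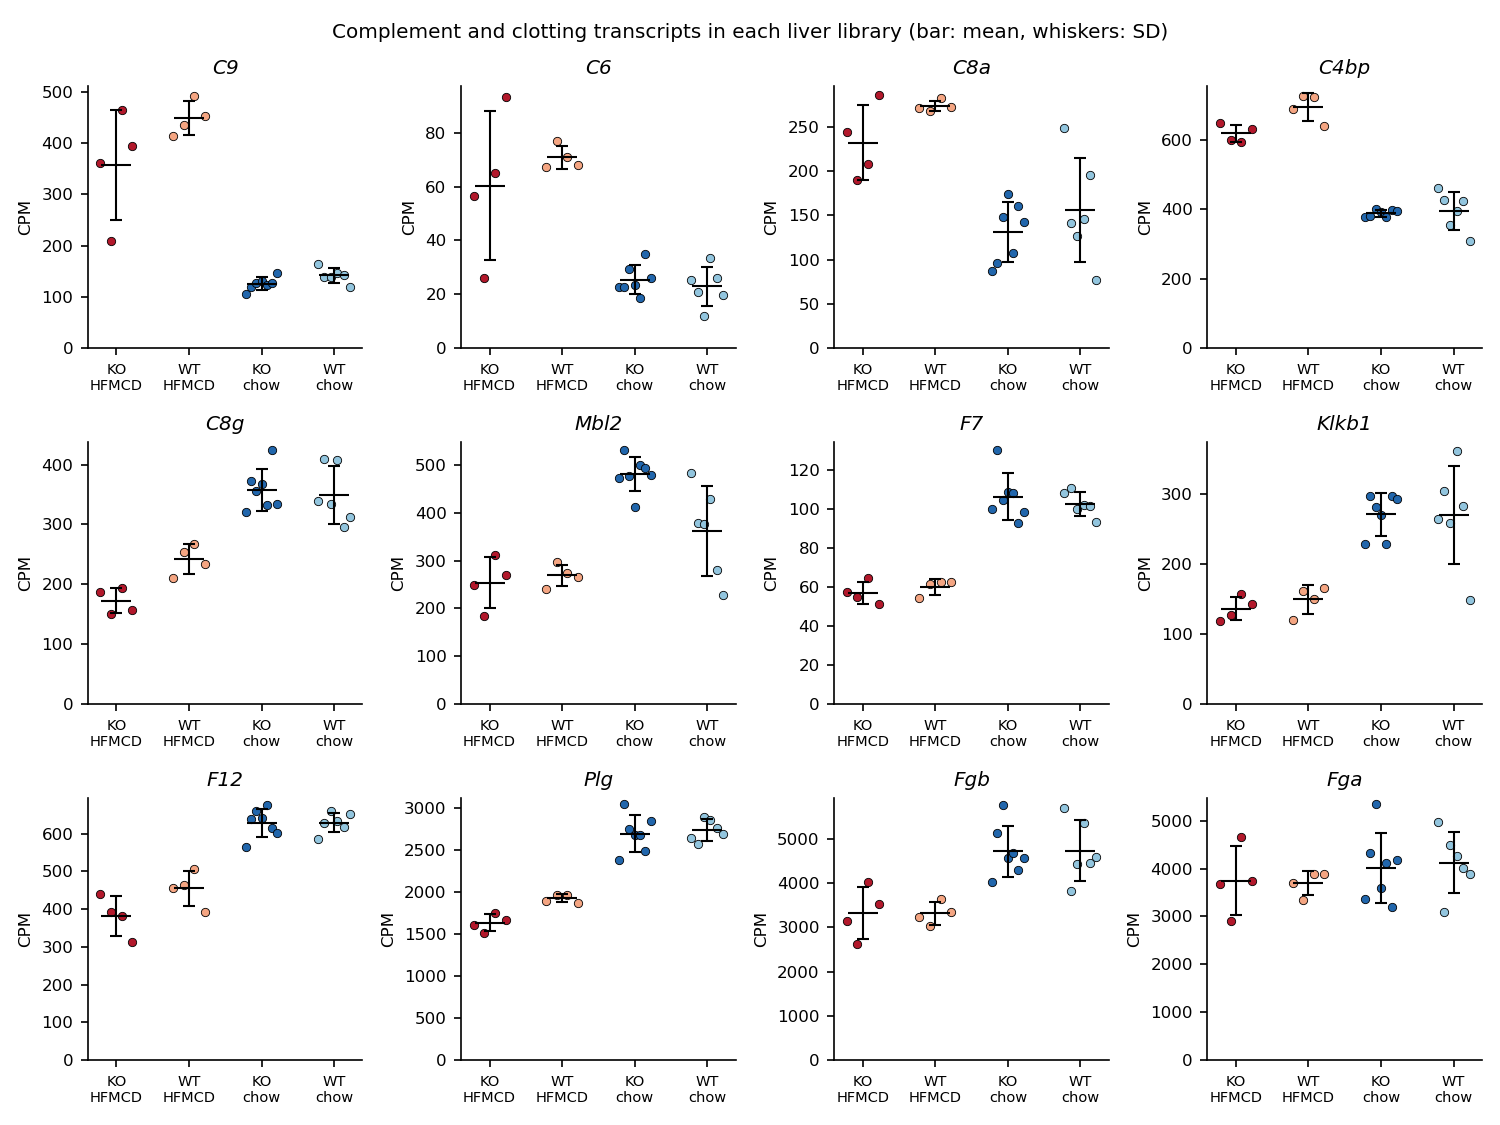
CPM (y axis, from 0) of 12 complement and clotting transcripts in each liver (points) of the 4 groups (x axis), with the group mean (bar) and SD (whiskers). C9, C6, C8a and C4bp are higher and C8g, Mbl2, F7, Klkb1, F12, Plg and Fgb lower on HFMCD. The diets overlap for C6 in KO livers, for Mbl2 and Klkb1 in WT livers, and for Fga in both genotypes. The KO HFMCD liver at 209.8 CPM of C9 and 26.1 CPM of C6 stands low.

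Among the inhibitors of complement, C4bp rose, Vtn fell and Cfi was not called. C4bp encodes the C4b-binding protein, a cofactor for the cleavage of C4b by factor I. It was at 647, 600.5, 595 and 630.5 CPM in the KO livers and 688, 725, 723 and 640.0 CPM in the WT livers, against 377 to 399.7 CPM (median 391) in KO chow livers and 309 to 461 CPM (median 409) in WT chow livers. HFMCD livers lay above chow livers in both genotypes without overlap. The log2 fold change was 0.67 (SE 0.08, adjusted p = 1.95e-07 by edgeR) in KO and 0.81 (SE 0.09, adjusted p = 2.47e-08 by edgeR) in WT livers. Vtn encodes vitronectin, which blocks the insertion of the terminal complex and also binds the plasminogen activator inhibitor PAI-1. It was at 1659.6, 1657, 1811 and 1487 CPM in the KO livers and 1713, 1812, 1974 and 1728 CPM in the WT livers, against 2247 to 2846 CPM (median 2519.9) in KO chow livers and 2010.5 to 2755 CPM (median 2581) in WT chow livers. Here HFMCD livers lay below chow livers without overlap, with log2 fold changes of -0.62 (SE 0.10, adjusted p = 7.71e-06 by edgeR) in KO and -0.43 (SE 0.10, adjusted p = 0.000811 by edgeR) in WT livers. Cfi, the protease factor I, had group medians between 617 and 679 CPM and log2 fold changes of 0.05 in KO and 0.10 in WT livers that were not called.

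The promoters of C9 and C4bp are shown because these transcripts had the clearest rises with diet. Each is the 250 bases before the gene's start in RefSeq on GRCm38.p6, written 5′ to 3′ on the gene's strand. They lie at chr15:6445096-6445345, plus strand, and chr1:130661619-130661868, minus strand. Capitals mark a C/EBP-type match in C9 and an HNF1-type match in C4bp.
C9: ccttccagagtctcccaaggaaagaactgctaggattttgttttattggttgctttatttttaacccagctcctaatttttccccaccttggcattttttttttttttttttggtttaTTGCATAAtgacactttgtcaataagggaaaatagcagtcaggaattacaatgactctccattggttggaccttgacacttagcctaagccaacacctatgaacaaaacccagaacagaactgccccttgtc
C4bp: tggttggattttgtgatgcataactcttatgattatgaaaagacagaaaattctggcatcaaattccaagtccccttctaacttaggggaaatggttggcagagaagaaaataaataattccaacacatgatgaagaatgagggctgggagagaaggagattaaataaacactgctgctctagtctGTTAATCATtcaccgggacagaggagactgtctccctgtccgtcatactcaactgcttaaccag
A set of 5 motifs was searched on both strands: HNF1 as GTTAATNAT, HNF4 as CAAAGTCCA, C/EBP as TTGCNNAA, the type II interleukin-6 response element as CTGGGAA and STAT as TTCNNNGAA, of which the last pair can share letters (TTCCCAGAA, in F9 and Masp2). RefSeq promoters were found for 30 of the 38 genes, with more than 1 start for some (32 promoters). Among these genes, the HNF1 letters occurred in C4bp, F13b, Fga and Hc, and in 0.737% of all 32851 promoters of the same length. The C/EBP letters occurred in 9 genes (9.56% of all promoters), the interleukin-6 element in 5 (9.1%), the STAT letters in 6 (7.02%) and the HNF4 letters in 0 (0.384%). A match describes letters in the window and was not tested as a binding site.

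In the lectin route the recognition molecules and the proteases differed. Mbl2 encodes mannose-binding lectin C, which recognises sugars on microbes. It was at 248, 184, 312 and 270.3 CPM in the KO livers and 240.4, 296, 273 and 266 CPM in the WT livers, against 412 to 530.5 CPM (median 479) in KO chow livers and 228 to 482 CPM (median 377) in WT chow livers. KO HFMCD livers lay below all KO chow livers, while the WT groups overlapped because the WT chow livers spread widely. Mbl2 fell with a log2 fold change of -0.92 (SE 0.16, adjusted p = 1.86e-05 by edgeR) in KO and -0.43 (SE 0.16, adjusted p = 0.0217 by edgeR) in WT livers. The WT call was lost, at log2 fold changes of -0.37 to -0.33 (edgeR adjusted p = 0.0602 to 0.0914), without any 1 of WT HFMCD replicate 1 and WT chow replicates 1, 2 and 4. Mbl1, the gene of mannose-binding lectin A, was at 125, 89.5, 149 and 118 CPM in the KO livers and 133, 158, 163 and 130.3 CPM in the WT livers, against 132 to 162 CPM (median 145) in KO chow livers and 138 to 203 CPM (median 168) in WT chow livers. Groups overlapped in both genotypes. It was called in KO livers at -0.28 (SE 0.12, adjusted p = 0.0323 by edgeR), a call lost at -0.27 to -0.16 (edgeR adjusted p = 0.0685 to 0.206) without any 1 of KO HFMCD replicates 2 and 4 and KO chow replicates 2, 3 and 6. In WT livers it was -0.22 (SE 0.12, adjusted p = 0.101 by edgeR), called at -0.28 without WT chow replicate 3 (edgeR adjusted p = 0.0407).

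Masp1, a protease that activates MASP-2, was at 184, 211, 162 and 202 CPM in the KO livers and 189, 183, 198 and 189 CPM in the WT livers, against 123 to 160.2 CPM (median 143) in KO chow livers and 123 to 151 CPM (median 136) in WT chow livers. All HFMCD livers lay above the chow livers of their genotype. Masp1 rose with a log2 fold change of 0.43 (SE 0.08, adjusted p = 6.53e-05 by edgeR) in KO and 0.48 (SE 0.08, adjusted p = 2.89e-05 by edgeR) in WT livers. Masp2, the protease that cleaves C4 and C2, was at 150.1, 145, 152 and 143 CPM in the KO livers and 183, 176, 169.5 and 171 CPM in the WT livers, against 171 to 225 CPM (median 184) in KO chow livers and 180.3 to 241 CPM (median 203) in WT chow livers. KO HFMCD livers lay below all KO chow livers, and the WT groups overlapped. Its log2 fold changes were -0.35 (SE 0.08, adjusted p = 0.000727 by edgeR) in KO and -0.25 (SE 0.09, adjusted p = 0.0142 by edgeR) in WT livers. The WT call was lost at -0.18 and -0.15 (edgeR adjusted p = 0.0779 and 0.102) without WT chow replicate 2 or 6. Of the 3307 exon bases of Masp2, 1817 are also exon bases of Tardbp on the opposite strand, and with the strand setting of the counting not given here the reads of these genes may not be separable. Tardbp, an RNA-binding protein gene, was at 55.0 ± 11.2 CPM in KO HFMCD and 65.3 ± 6.98 CPM in WT HFMCD livers (SD, n = 4 each), against 155 ± 15.7 CPM in KO chow (SD, n = 7) and 128 ± 17.8 CPM in WT chow livers (SD, n = 6). It fell with HFMCD, as Masp2 did, with log2 fold changes of -1.49 (SE 0.12, adjusted p = 2.98e-10 by edgeR) in KO and -0.97 (SE 0.12, adjusted p = 4.22e-07 by edgeR) in WT livers, and its part in the Masp2 values was not tested.

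Of the 4 classical route genes, C2 and C1s1 were called higher in WT livers and 0 were called in KO livers. C2, the zymogen of the classical and lectin C3 convertase, was at 42.6, 46.2, 43.3 and 37.8 CPM in the KO livers and 46.7, 56.5, 45.3 and 48.9 CPM in the WT livers, against 34.5 to 42.9 CPM (median 37.4) in KO chow livers and 29.3 to 36.2 CPM (median 34.8) in WT chow livers. WT HFMCD livers lay above all WT chow livers, and the KO groups overlapped. Its log2 fold change was 0.15 (SE 0.08, adjusted p = 0.11 by edgeR) in KO and 0.56 (SE 0.08, adjusted p = 3.57e-06 by edgeR) in WT livers. C1s1, the protease C1s, was at 467, 419, 461 and 470.1 CPM in the KO livers and 469, 511, 503 and 500.2 CPM in the WT livers, against 376 to 417 CPM (median 393) in KO chow livers and 249 to 428 CPM (median 362) in WT chow livers. In both genotypes HFMCD livers lay above chow livers, with log2 fold changes of 0.21 (SE 0.10, adjusted p = 0.0695 by edgeR) in KO and 0.52 (SE 0.10, adjusted p = 0.000123 by edgeR) in WT livers. In KO livers C1s1 was called at 0.25 without KO HFMCD replicate 2 (edgeR adjusted p = 0.049). C2 was called there at 0.19 to 0.21 (edgeR adjusted p = 0.0413 to 0.0484) without any 1 of KO HFMCD replicate 4 and KO chow replicates 2 and 6.

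C1ra, the protease C1r, was at 142, 134, 156 and 155 CPM in the KO livers and 147, 171, 171 and 164 CPM in the WT livers, against 143 to 175 CPM (median 153) in KO chow livers and 129 to 160.2 CPM (median 147) in WT chow livers. Its groups overlapped, with log2 fold changes of -0.09 (SE 0.08, adjusted p = 0.308 by edgeR) in KO and 0.16 (SE 0.08, adjusted p = 0.0776 by edgeR) in WT livers. The WT value was called at 0.19 to 0.22 (edgeR adjusted p = 0.0321 to 0.0473) without any 1 of WT HFMCD replicate 1 and WT chow replicates 2 to 5. C4b, the gene of complement C4, was at 633, 627, 678 and 659.8 CPM in the KO livers and 822, 785, 714 and 749 CPM in the WT livers, against 591 to 962 CPM (median 773) in KO chow livers and 754 to 1194 CPM (median 895) in WT chow livers. The groups overlapped by diet, and its log2 fold changes of -0.26 (SE 0.12, adjusted p = 0.055 by edgeR) in KO and -0.27 (SE 0.12, adjusted p = 0.0594 by edgeR) in WT livers were not called. It was called at -0.32 without KO chow replicate 4 (edgeR adjusted p = 0.0158) and at -0.30 without WT chow replicate 3 (edgeR adjusted p = 0.047). C4b has a near-identical copy, C4a, listed at 23 to 121 counts per library against 10848 to 24456 for C4b, so the split of reads between them is uncertain. Opposite in sign to C4b, C4a was called higher with HFMCD in both genotypes. Its log2 fold changes were 0.94 (SE 0.22, adjusted p = 0.000617 by edgeR) in KO and 0.60 (SE 0.23, adjusted p = 0.0259 by edgeR) in WT livers. C1ra and C1s1 have the copies C1rb and C1s2, listed at 0 to 4 and 0 to 9 counts.

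By RPKM in WT chow livers the alternative route genes Cfp, Cfd and Cfb ranked 32, 37 and 38 of the 38. Cfp, properdin, stabilises the C3 convertase and is made mainly by leukocytes. It was at 48.9, 48.4, 60.6 and 57.1 CPM in the KO livers and 61.3, 74.8, 59.4 and 84.9 CPM in the WT livers, against 31.0 to 41.9 CPM (median 36.5) in KO chow livers and 23.4 to 60.8 CPM (median 39.0) in WT chow livers. The KO groups did not overlap, and the WT groups did. Cfp rose with a log2 fold change of 0.55 (SE 0.19, adjusted p = 0.013 by edgeR) in KO and 0.88 (SE 0.19, adjusted p = 0.000531 by edgeR) in WT livers. The sum of the macrophage markers given above was higher in the same livers. Cfb, the protease of the alternative C3 convertase, was at 5.72, 6.21, 2.53 and 2.98 CPM in the KO livers and 4.12, 5.28, 5.77 and 5.07 CPM in the WT livers, against 1.87 to 2.99 CPM (median 2.53) in KO chow livers and 2.26 to 3.58 CPM (median 2.67) in WT chow livers. All WT HFMCD livers lay above all WT chow livers, and KO HFMCD replicates 3 and 4 fell within the KO chow range. Cfb rose with a log2 fold change of 0.79 (SE 0.21, adjusted p = 0.00193 by edgeR) in KO and 0.88 (SE 0.22, adjusted p = 0.00121 by edgeR) in WT livers. These levels rest on 42 to 169 counts per library. Of the 2825 exon bases of Cfb, 2246 are shared with the readthrough gene Gm20547 on the same strand, which was listed at 0 counts in every library, and 1656 of the 3872 exon bases of C2 are shared with it too. Whether reads in the shared exons were counted for any gene was not tested, so the level of Cfb is uncertain.

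C3 was at 7271, 7899, 7261 and 7403 CPM in the KO livers and 7772, 8392, 8288 and 7497 CPM in the WT livers, against 6877 to 9461 CPM (median 8557) in KO chow livers and 7778 to 10209 CPM (median 9559) in WT chow livers. The groups overlapped. Its log2 fold change was -0.13 (SE 0.10, adjusted p = 0.212 by edgeR) in KO and -0.23 (SE 0.10, adjusted p = 0.045 by edgeR) in WT livers. The WT call was lost in 9 of 10 fits that left out 1 library, all but that without WT chow replicate 2, at -0.25 to -0.16 (edgeR adjusted p = 0.0544 to 0.157).

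In the contact arm of clotting, the initiating proteins fell and F11 rose. F12, factor XII, was at 439.5, 393, 382 and 312 CPM in the KO livers and 454, 463, 507 and 393 CPM in the WT livers, against 564 to 676 CPM (median 637) in KO chow livers and 586 to 658 CPM (median 630.1) in WT chow livers. All HFMCD livers lay below the chow livers. F12 fell with a log2 fold change of -0.72 (SE 0.09, adjusted p = 1.58e-07 by edgeR) in KO and -0.47 (SE 0.09, adjusted p = 8.39e-05 by edgeR) in WT livers. Kng1, the kininogen that carries prekallikrein and factor XI and releases bradykinin, was at 1208, 1489, 1571 and 1331 CPM in the KO livers and 1308, 1428, 1517 and 1399.7 CPM in the WT livers, against 2108 to 2560.3 CPM (median 2251) in KO chow livers and 1808 to 2381 CPM (median 2137) in WT chow livers. Its groups did not overlap by diet in either genotype. Kng1 fell with a log2 fold change of -0.69 (SE 0.09, adjusted p = 8.04e-07 by edgeR) in KO and -0.59 (SE 0.10, adjusted p = 1.25e-05 by edgeR) in WT livers. The related gene Kng2, at 5069 to 7989 counts per library, is near-identical in parts, and how reads were divided between them is uncertain. Kng2 also fell, with log2 fold changes of -0.60 in KO and -0.56 in WT livers.

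Klkb1, plasma prekallikrein, was at 119, 127, 157 and 142 CPM in the KO livers and 120.3, 162, 149.98 and 166 CPM in the WT livers, against 228 to 297 CPM (median 281) in KO chow livers and 148 to 362 CPM (median 273) in WT chow livers. KO HFMCD livers lay below all KO chow livers. In WT livers 1 chow liver, at 148 CPM, fell inside the HFMCD range. Klkb1 fell with a log2 fold change of -0.99 (SE 0.16, adjusted p = 1.22e-05 by edgeR) in KO and -0.85 (SE 0.16, adjusted p = 0.000114 by edgeR) in WT livers. F11, factor XI, was at 49.4, 55.3, 51.8 and 54.8 CPM in the KO livers and 42.9, 49.7, 49.1 and 56.1 CPM in the WT livers, against 34.4 to 47.7 CPM (median 39.6) in KO chow livers and 25.4 to 44.8 CPM (median 39.1) in WT chow livers. KO HFMCD livers lay above KO chow livers, and the WT groups overlapped. F11 rose with a log2 fold change of 0.38 (SE 0.12, adjusted p = 0.00763 by edgeR) in KO and 0.41 (SE 0.12, adjusted p = 0.00593 by edgeR) in WT livers. These paralogous genes are neighbours on chromosome 8, 4657 bases apart with no protein-coding gene between them, and their calls were opposite in sign. Per exon length the ratio of Klkb1 to F11 was 1.10 ± 0.14 in KO HFMCD and 1.29 ± 0.0806 in WT HFMCD livers (SD, n = 4 each), against 2.85 ± 0.272 in KO chow (SD, n = 7) and 3.07 ± 0.443 in WT chow livers (SD, n = 6). Of the 5249 exon bases of Klkb1, 2267 are shared with Gm45753 on the same strand, listed at 0 or 1 counts, so the level of Klkb1 per length is uncertain. F9, factor IX, was at 215, 172, 227 and 216 CPM in the KO livers and 260.2, 239, 252 and 242 CPM in the WT livers, against 199 to 253 CPM (median 232) in KO chow livers and 208 to 304 CPM (median 258) in WT chow livers. Its groups overlapped by diet, and its diet log2 fold changes of -0.12 in KO and -0.07 in WT livers were not called.

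The promoters of this neighbouring pair are shown for their opposite calls, as RefSeq gives them on GRCm38.p6. They are at chr8:45294836-45295085, minus strand, and chr8:45262032-45262281, minus strand. Capitals mark a C/EBP-type match, 177 bases before the start in Klkb1 and 17 before it in F11.
Klkb1: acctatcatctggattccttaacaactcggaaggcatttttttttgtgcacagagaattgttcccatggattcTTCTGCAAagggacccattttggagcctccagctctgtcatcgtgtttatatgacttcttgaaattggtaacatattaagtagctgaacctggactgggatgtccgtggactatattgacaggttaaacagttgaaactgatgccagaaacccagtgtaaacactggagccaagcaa
F11: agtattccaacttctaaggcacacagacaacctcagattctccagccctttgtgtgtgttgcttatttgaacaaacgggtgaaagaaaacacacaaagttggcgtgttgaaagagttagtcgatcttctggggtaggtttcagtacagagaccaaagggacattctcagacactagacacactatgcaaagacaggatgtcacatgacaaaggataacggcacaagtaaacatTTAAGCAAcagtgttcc

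The tissue factor arm and the common path fell together except for F5. F7, factor VII, was at 57.5, 54.9, 64.9 and 51.5 CPM in the KO livers and 54.3, 61.9, 62.8 and 62.5 CPM in the WT livers, against 93.2 to 131 CPM (median 104.8) in KO chow livers and 93.6 to 110.7 CPM (median 101.99) in WT chow livers. HFMCD and chow livers were far apart in both genotypes. F7 fell with a log2 fold change of -0.90 (SE 0.09, adjusted p = 3.31e-09 by edgeR) in KO and -0.77 (SE 0.09, adjusted p = 8.04e-08 by edgeR) in WT livers. F10, factor X, lies 1498 bases from F7 on chromosome 8 with no protein-coding gene between. It was at 321.9, 324.6, 431 and 324.4 CPM in the KO livers and 324.7, 357, 392 and 375 CPM in the WT livers, against 486 to 623 CPM (median 516) in KO chow livers and 428 to 545 CPM (median 488) in WT chow livers. The diets did not overlap, and the log2 fold changes were -0.59 (SE 0.10, adjusted p = 9.43e-06 by edgeR) in KO and -0.43 (SE 0.10, adjusted p = 0.000595 by edgeR) in WT livers. F2, prothrombin, was at 1324, 1311, 1453 and 1239.5 CPM in the KO livers and 1472, 1556, 1652 and 1497 CPM in the WT livers, against 1964 to 2200.1 CPM (median 2113) in KO chow livers and 1819.7 to 2122 CPM (median 1973) in WT chow livers. All HFMCD livers lay below all chow livers. F2 fell with a log2 fold change of -0.64 (SE 0.07, adjusted p = 4.54e-08 by edgeR) in KO and -0.35 (SE 0.07, adjusted p = 0.000213 by edgeR) in WT livers. F5, the cofactor of factor Xa, was at 513, 501, 388 and 546 CPM in the KO livers and 594, 508, 459.7 and 558 CPM in the WT livers, against 515 to 629 CPM (median 557) in KO chow livers and 475 to 679 CPM (median 519) in WT chow livers. Its groups overlapped, with log2 fold changes of -0.21 (SE 0.11, adjusted p = 0.0899 by edgeR) in KO and -0.05 (SE 0.11, adjusted p = 0.688 by edgeR) in WT livers.

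The fibrinogen chains are encoded by 3 neighbouring genes on chromosome 3 and are secreted in equal numbers, yet their transcripts did not fall alike. Fgb, the beta chain, was at 3146, 2630.2, 4030 and 3531 CPM in the KO livers and 3242, 3040.2, 3654 and 3359.6 CPM in the WT livers, against 4032 to 5774 CPM (median 4577) in KO chow livers and 3818 to 5712 CPM (median 4532) in WT chow livers. HFMCD livers lay below the chow livers of their genotype, in KO by the narrow margin of 4030 against 4032 CPM. Fgb fell with a log2 fold change of -0.50 (SE 0.12, adjusted p = 0.000813 by edgeR) in KO and -0.51 (SE 0.12, adjusted p = 0.00111 by edgeR) in WT livers. Fgg, the gamma chain, was at 2573, 2035, 3378 and 2811 CPM in the KO livers and 2388, 2317, 2868 and 2632 CPM in the WT livers, against 3044 to 4429 CPM (median 3498) in KO chow livers and 2801 to 4399 CPM (median 3264) in WT chow livers. Its groups overlapped in both genotypes. Fgg fell with a log2 fold change of -0.37 (SE 0.14, adjusted p = 0.0175 by edgeR) in KO and -0.44 (SE 0.14, adjusted p = 0.00894 by edgeR) in WT livers, and the KO call was lost at -0.35 to -0.25 (edgeR adjusted p = 0.0503 to 0.107) without any 1 of KO HFMCD replicates 1 and 2 and KO chow replicate 3. Fga, the alpha chain, was at 3681, 2908, 4659 and 3739.9 CPM in the KO livers and 3691, 3343, 3882 and 3888 CPM in the WT livers, against 3188 to 5351 CPM (median 4119) in KO chow livers and 3082 to 4968 CPM (median 4139) in WT chow livers. Its groups overlapped widely, and its log2 fold changes of -0.10 (SE 0.14, adjusted p = 0.532 by edgeR) in KO and -0.15 (SE 0.14, adjusted p = 0.357 by edgeR) in WT livers were not called.

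Per exon length, Fga over Fgb was 1.42 ± 0.0641 in KO HFMCD and 1.41 ± 0.0534 in WT HFMCD livers (SD, n = 4 each), against 1.07 ± 0.0851 in KO chow (SD, n = 7) and 1.10 ± 0.101 in WT chow livers (SD, n = 6). The lowest HFMCD liver had a ratio of 1.34 and the highest chow liver 1.28, so the diets did not overlap although the Fga levels did. Fga over Fgg was 0.968 ± 0.033 in KO HFMCD and 1.012 ± 0.0555 in WT HFMCD livers, against 0.795 ± 0.0401 in KO chow and 0.833 ± 0.077 in WT chow livers. These ratios come from annotated exon lengths and were not set against protein amounts. F13b, the carrier subunit of the fibrin-crosslinking factor XIII, was at 210.3, 183, 242 and 237 CPM in the KO livers and 217, 229, 254 and 243 CPM in the WT livers, against 170.1 to 237 CPM (median 189) in KO chow livers and 176 to 261 CPM (median 204) in WT chow livers. Its groups overlapped, and its log2 fold changes of 0.16 (SE 0.10, adjusted p = 0.18 by edgeR) in KO and 0.18 (SE 0.11, adjusted p = 0.149 by edgeR) in WT livers were not called. Without WT chow replicate 5 the WT value was called at 0.30 (edgeR adjusted p = 0.0135).

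**Figure D3:**
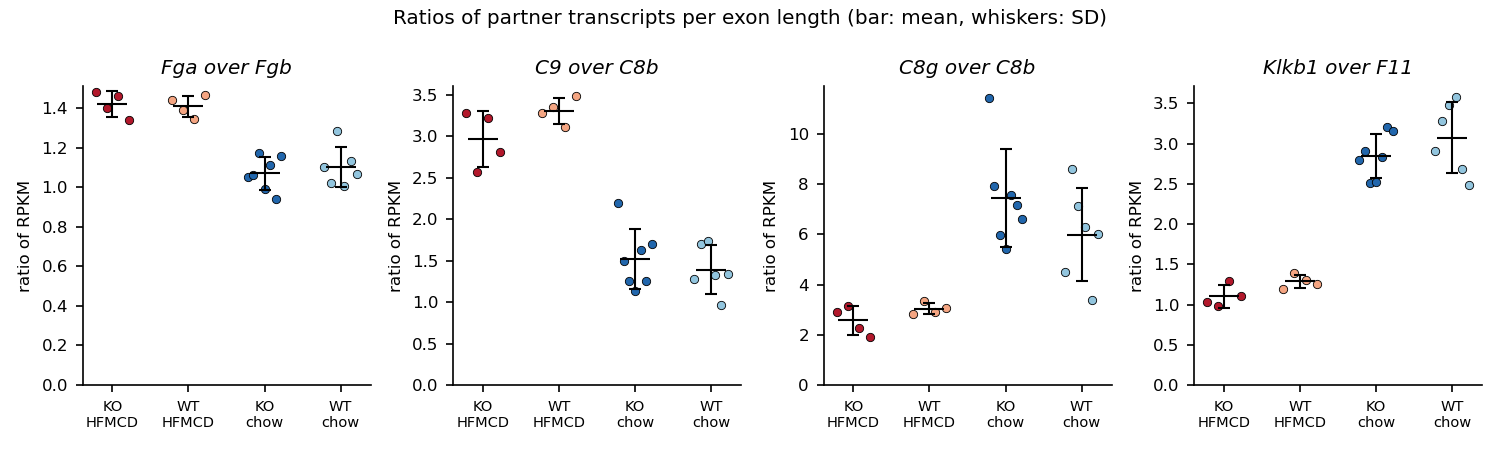
Ratio of RPKM (y axis, from 0) of Fga over Fgb, C9 over C8b, C8g over C8b and Klkb1 over F11 in each liver (points) of the 4 groups (x axis), with mean (bar) and SD (whiskers). The Fga over Fgb ratio lies between 1.34 and 1.48 on HFMCD and between 0.939 and 1.28 on chow, and the Klkb1 over F11 ratio reaches at most 1.39 on HFMCD and at least 2.49 on chow.

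The promoters of the fibrinogen genes are shown because these 3 transcripts feed the same protein and moved unequally. They are the 250 bases before the RefSeq starts on GRCm38.p6, at chr3:83025903-83026152, plus strand, chr3:83049864-83050113, minus strand, and chr3:83007474-83007723, plus strand. Capitals mark motif matches: in Fga a STAT-type, a C/EBP-type and an HNF1-type match in that order, in Fgb a STAT-type match, the type II interleukin-6 element and a C/EBP-type match in that order, and in Fgg the type II interleukin-6 element.
Fga: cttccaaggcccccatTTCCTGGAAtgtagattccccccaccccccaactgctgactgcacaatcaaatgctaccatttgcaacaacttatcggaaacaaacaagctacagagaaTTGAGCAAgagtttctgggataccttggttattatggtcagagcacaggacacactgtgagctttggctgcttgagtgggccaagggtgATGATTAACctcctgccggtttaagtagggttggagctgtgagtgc
Fgb: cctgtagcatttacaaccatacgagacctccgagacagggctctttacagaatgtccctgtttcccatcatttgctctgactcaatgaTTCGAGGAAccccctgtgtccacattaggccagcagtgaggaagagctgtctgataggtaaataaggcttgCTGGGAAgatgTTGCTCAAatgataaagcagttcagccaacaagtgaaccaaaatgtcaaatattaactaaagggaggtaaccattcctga
Fgg: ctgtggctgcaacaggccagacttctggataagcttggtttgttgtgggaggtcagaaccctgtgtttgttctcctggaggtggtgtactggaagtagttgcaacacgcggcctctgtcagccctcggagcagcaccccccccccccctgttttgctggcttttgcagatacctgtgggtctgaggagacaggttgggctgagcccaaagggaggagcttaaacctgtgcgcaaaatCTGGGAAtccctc
Of these 3, Fga was the promoter with an HNF1-type match, 46 bases before its RefSeq start. The annotation used for exon lengths starts Fga at chr3:83026076, which lies inside the window shown. Fga lacked the full CTGGGAA letters that Fgb had 91 bases and Fgg 13 bases before their RefSeq starts. The Fga window held ctggga without the last A. Whether any of these letters bear on the transcript levels was not tested.

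Of the anticoagulants, Proc fell and Pros1 was not called. Proc, protein C, the protease that inactivates factors Va and VIIIa, was at 355, 349, 370.3 and 281 CPM in the KO livers and 358, 401, 430.1 and 378 CPM in the WT livers, against 503 to 577 CPM (median 539.8) in KO chow livers and 422 to 572 CPM (median 505) in WT chow livers. The KO groups did not overlap, and the WT groups did. Proc fell with a log2 fold change of -0.66 (SE 0.09, adjusted p = 6.45e-07 by edgeR) in KO and -0.35 (SE 0.09, adjusted p = 0.00184 by edgeR) in WT livers. Pros1, protein S, its cofactor, was at 98.1, 97.6, 107.6 and 112 CPM in the KO livers and 128, 106.1, 100 and 101.8 CPM in the WT livers, against 76.1 to 103.4 CPM (median 93.8) in KO chow livers and 64.6 to 145 CPM (median 117) in WT chow livers. The groups overlapped, with log2 fold changes of 0.17 (SE 0.15, adjusted p = 0.318 by edgeR) in KO and -0.05 (SE 0.15, adjusted p = 0.8 by edgeR) in WT livers. Plg, plasminogen, was at 1609, 1513, 1758 and 1671 CPM in the KO livers and 1896, 1966, 1968 and 1876 CPM in the WT livers, against 2384 to 3048 CPM (median 2683) in KO chow livers and 2571 to 2904 CPM (median 2731) in WT chow livers. All HFMCD livers lay below all chow livers. Plg fell with a log2 fold change of -0.72 (SE 0.08, adjusted p = 2.18e-08 by edgeR) in KO and -0.51 (SE 0.08, adjusted p = 6.94e-06 by edgeR) in WT livers. Ahsg was at 6838, 7626, 7246 and 6170.3 CPM in the KO livers and 7429, 7218, 7816 and 6538 CPM in the WT livers, against 5372 to 7809.9 CPM (median 6994) in KO chow livers and 6131 to 9321 CPM (median 7288) in WT chow livers, with overlapping groups and log2 fold changes of 0.05 in KO and -0.06 in WT livers that were not called.

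The knockout comparison asks whether loss of Mboat7 in hepatocytes changes these transcripts. On HFMCD, 0 of the 37 genes were called between KO and WT livers by edgeR, beside 0.319% of all tested genes, and 10 of the 37 (27%) had an unadjusted p under 0.05, beside 9.96% of all tested genes. The log2 fold change was negative for 33 of the 37 and for all 20 complement genes, beside 7656 of all 15677 tested genes. The median was -0.16 over the 37 against 0.01 over all tested genes. With upper-quartile scaling 31 of the 37 were negative, at a median of -0.14 against 0.02 over all genes. The KO libraries lay entirely below the WT libraries for 6 genes (C4b, Masp2, C8g, F9, F2 and Plg) and entirely above them for 0, beside 3.66% and 4.96% of all tested genes.

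C8g came nearest to a call on HFMCD, with KO livers at 151 to 193 CPM below WT livers at 209.8 to 268 CPM and a log2 fold change of -0.49 (SE 0.12, adjusted p = 0.0768 by edgeR). It was called when the fit held only the 2 HFMCD groups (-0.50, edgeR adjusted p = 0.0308), by DESeq2 (-0.49, adjusted p = 0.0156) and by limma-voom (-0.48, adjusted p = 0.0119). Plg, at 1513 to 1758 CPM in KO and 1876 to 1968 CPM in WT livers, had a log2 fold change of -0.23 (SE 0.09, adjusted p = 0.324 by edgeR). F2, at 1239.5 to 1453 CPM in KO and 1472 to 1652 CPM in WT livers, had -0.21 (SE 0.08, adjusted p = 0.336 by edgeR). These groups did not overlap, and the differences did not pass the test. Masp2 had a log2 fold change of -0.25 (SE 0.09, adjusted p = 0.345 by edgeR) and F12 of -0.25 (SE 0.10, adjusted p = 0.356 by edgeR) between KO and WT livers on HFMCD. The 9 hepatocyte markers also had negative values on HFMCD, 9 of 9 with 0 called and a median of -0.23, and their part in these values was not tested.

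On chow, 0 of the 37 genes were called between KO and WT livers by edgeR, beside 2.17% of all tested genes, and 9 of the 37 (24.3%) had an unadjusted p under 0.05, beside 17.9% of all tested genes. Signs were split, with 18 positive and 19 negative values and a median of -0.0023 against 0.01 over all tested genes. With RLE or upper-quartile scaling and by DESeq2, 20 were positive and 17 negative. DESeq2 and limma-voom also called 0 of the 37 on chow. For 0 of the 37 did the KO and WT libraries lie apart, beside 0.236% of all genes with KO above and 0.421% with KO below. Mbl2 had the smallest p, with KO livers at 412 to 530.5 CPM (median 479) and WT livers at 228 to 482 CPM (median 377). The groups overlapped, and the log2 fold change of 0.41 (SE 0.14, adjusted p = 0.113 by edgeR) was not called. Without WT chow replicate 1 Mbl2 was called at 0.51 (edgeR adjusted p = 0.0419), and without WT chow replicate 3 Pros1 was called at -0.40 (edgeR adjusted p = 0.0254). The next smallest p-values belonged to C2 at 0.20 (SE 0.07, adjusted p = 0.146 by edgeR), Hc at -0.21 (SE 0.09, adjusted p = 0.201 by edgeR), C4b at -0.25 (SE 0.11, adjusted p = 0.212 by edgeR) and F9 at -0.21 (SE 0.09, adjusted p = 0.215 by edgeR), for all of which KO and WT livers overlapped.

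**Figure D4:**
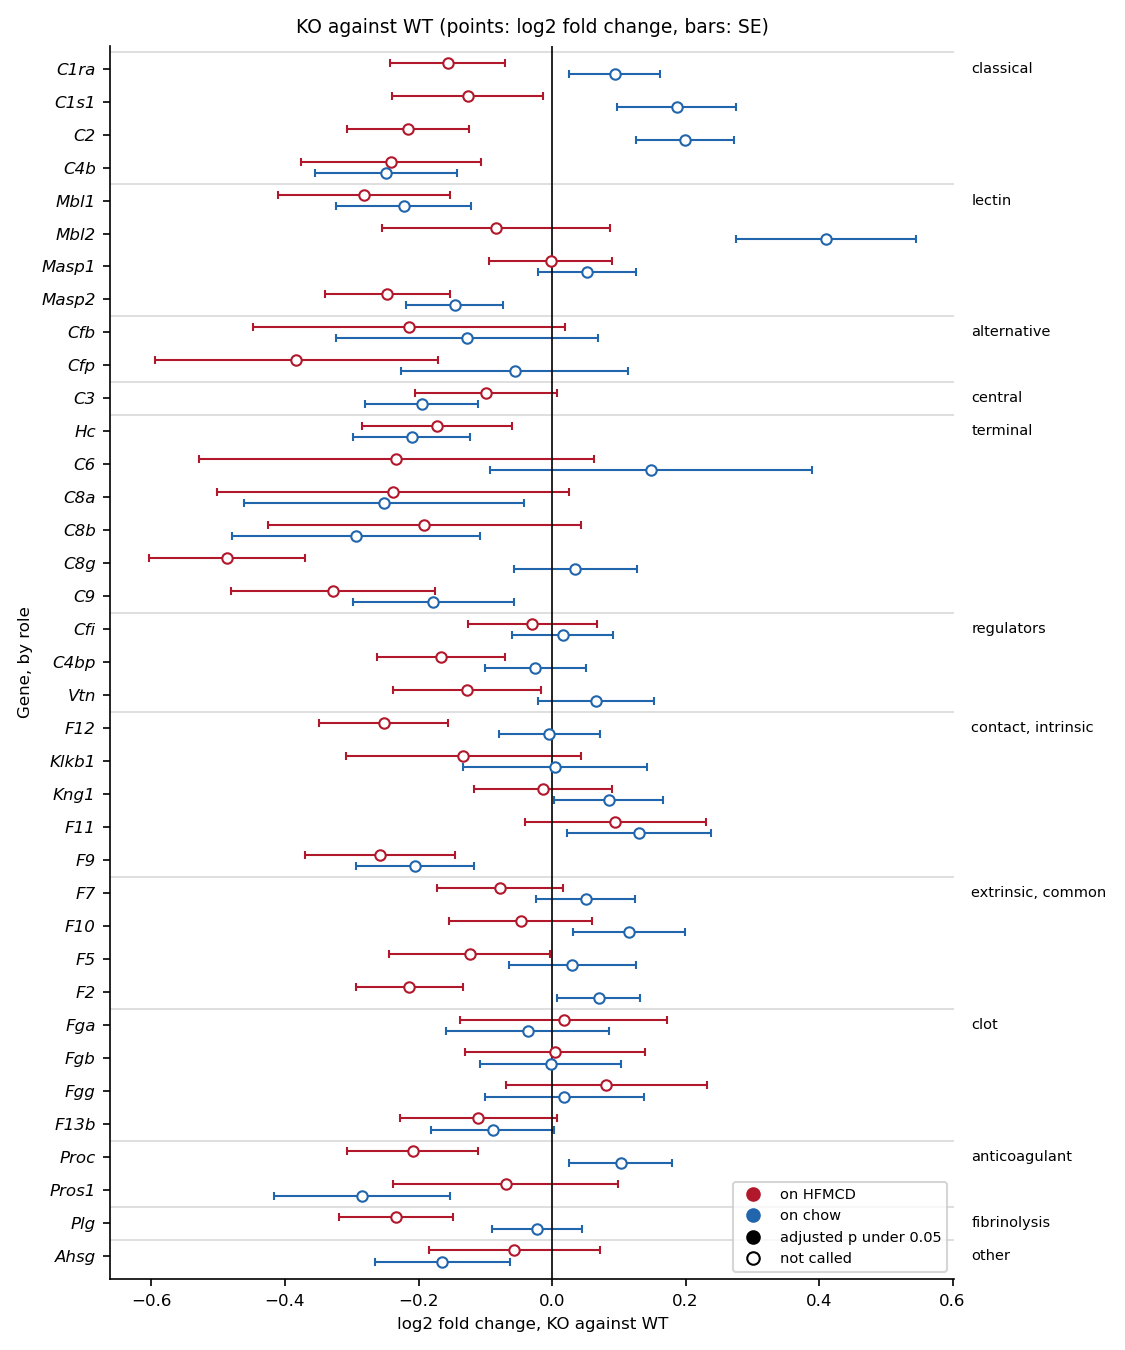
Log2 fold change of KO against WT (x axis, bars are SE) for the 37 tested genes (y axis, grouped by role), on HFMCD (dark red) and on chow (blue). All points are open because no gene was called, the values run from -0.49 to 0.09 on HFMCD and from -0.29 to 0.41 on chow, and 33 of 37 lie left of 0 on HFMCD.

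The difference of the knockout effect between the diets was tested in the same model. By edgeR 0 of the 37 genes were called, as were 0 of all tested genes (0%), with 7 of the 37 (18.9%) and 1581 of all genes (10.1%) at an unadjusted p under 0.05. The largest differences, KO against WT on HFMCD minus the same on chow, were -0.52 (SE 0.15, adjusted p = 0.203 by edgeR) for C8g, -0.49 (SE 0.22, adjusted p = 0.438 by edgeR) for Mbl2 and -0.41 (SE 0.12, adjusted p = 0.199 by edgeR) for C2. F2 had -0.28 (SE 0.10, adjusted p = 0.336 by edgeR), Proc -0.31 (SE 0.12, adjusted p = 0.394 by edgeR) and C1ra -0.25 (SE 0.11, adjusted p = 0.437 by edgeR). DESeq2 called F2 alone among the 37 (-0.29, adjusted p = 0.043). This test is also the one for whether the diet response differed between KO and WT livers, so the calls in only 1 genotype, of C1s1 at -0.31 (SE 0.14, adjusted p = 0.461 by edgeR), C2, C3 at 0.10 (SE 0.14, adjusted p = 0.875 by edgeR) and Mbl1 at -0.06 (SE 0.16, adjusted p = 0.953 by edgeR), are not shown to differ between genotypes.

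Genes of the same pathways outside the 38 also moved with diet. Of 28 further complement and lectin genes, 27 were tested. For HFMCD against chow, 13 rose and 7 fell in KO livers and 14 rose and 4 fell in WT livers. The shares called, 74.1% in KO and 66.7% in WT livers, were near the 69.7% and 62.5% of all tested genes. C3ar1, the C3a receptor of myeloid cells, was at 58.0 ± 6.99 CPM in KO HFMCD and 49.2 ± 5.86 CPM in WT HFMCD livers (SD, n = 4 each), against 3.90 ± 0.891 CPM in KO chow (SD, n = 7) and 3.74 ± 1.13 CPM in WT chow livers (SD, n = 6). Its log2 fold change was 3.89 (SE 0.16, adjusted p = 5.53e-15 by edgeR) in KO and 3.71 (SE 0.17, adjusted p = 6e-14 by edgeR) in WT livers, and those of C5ar1, Itgb2 and Itgax, the C5a receptor and chains of the leukocyte complement receptors, were 2.98, 3.69 and 4.99 in KO and 2.86, 3.46 and 5.05 in WT livers. Among the falls, Cpn1, a subunit of the enzyme that inactivates C3a and C5a, had -0.71 (SE 0.09, adjusted p = 3.06e-07 by edgeR) in KO and -0.64 (SE 0.09, adjusted p = 2.66e-06 by edgeR) in WT livers. These receptor genes rose in the livers in which 8 of 10 macrophage markers and 6 of 6 tested neutrophil markers were called higher. Over all tested genes, 33.7% in KO and 29% in WT livers were called higher. Between KO and WT livers, Colec10, a liver collectin, was the 1 gene of this list called on HFMCD, at -0.78 (SE 0.17, adjusted p = 0.0481 by edgeR). C1rl, a C1r-like protease, was the 1 gene called on chow, at -0.45 (SE 0.09, adjusted p = 0.0137 by edgeR).

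Of 29 further clotting and fibrinolysis genes, 28 were tested. With HFMCD, 14 rose and 4 fell in KO livers and 13 rose and 4 fell in WT livers. The shares called, 64.3% in KO and 60.7% in WT livers, were near the 69.7% and 62.5% of all tested genes. Plau, the urokinase that activates plasminogen, was at 23.6 ± 1.39 CPM in KO HFMCD and 19.0 ± 3.65 CPM in WT HFMCD livers (SD, n = 4 each), against 1.90 ± 0.613 CPM in KO chow (SD, n = 7) and 1.65 ± 0.525 CPM in WT chow livers (SD, n = 6). Its log2 fold change was 3.62 (SE 0.20, adjusted p = 2.98e-13 by edgeR) in KO and 3.52 (SE 0.21, adjusted p = 2.79e-12 by edgeR) in WT livers. Anxa2, which with S100a10 forms a cell-surface receptor for plasminogen, had 4.05 in KO and 3.82 in WT livers, the urokinase receptor Plaur 3.73 and 3.35, and the thrombin receptor F2r 2.54 and 2.30, all called higher. Serpinc1, antithrombin, fell with a log2 fold change of -0.74 (SE 0.08, adjusted p = 2.41e-08 by edgeR) in KO and -0.59 (SE 0.08, adjusted p = 1.35e-06 by edgeR) in WT livers. Apoh had -1.01 and -0.73 and Hgfac -0.91 and -0.51, called lower in both genotypes. Between KO and WT livers 0 genes of this list were called on HFMCD, and S100a10 was the 1 gene called on chow, at -0.60 (SE 0.13, adjusted p = 0.0222 by edgeR).

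The vitamin K cycle modifies prothrombin, factors VII, IX and X and proteins C and S after translation. Of its 6 genes, 2 rose and 2 fell in KO livers and 1 rose and 3 fell in WT livers with HFMCD. That is 66.7% called in each genotype, near the 69.7% in KO and 62.5% in WT livers of all tested genes. Vkorc1, the epoxide reductase that warfarin blocks, had -0.42 (SE 0.10, adjusted p = 0.00104 by edgeR) in KO and -0.34 (SE 0.11, adjusted p = 0.00847 by edgeR) in WT livers, Aifm2 -0.68 and -0.60, and the quinone reductase Nqo1 0.82 and 0.69, the last called higher. Of 20 regulators of hepatocyte plasma protein genes, 4 rose and 9 fell in KO livers and 2 rose and 8 fell in WT livers. The shares called, 65% in KO and 50% in WT livers, were below the 69.7% and 62.5% of all tested genes. Hnf4a, a nuclear receptor that drives many clotting factor genes, was at 440.4 ± 31.6 CPM in KO HFMCD and 519 ± 15.0 CPM in WT HFMCD livers (SD, n = 4 each), against 1003 ± 95.4 CPM in KO chow (SD, n = 7) and 962 ± 169 CPM in WT chow livers (SD, n = 6), and its libraries did not overlap by diet. Its log2 fold change was -1.19 (SE 0.11, adjusted p = 1.79e-09 by edgeR) in KO and -0.89 (SE 0.11, adjusted p = 3.03e-07 by edgeR) in WT livers. Il6ra, the interleukin-6 receptor, had -1.38 (SE 0.14, adjusted p = 6.51e-09 by edgeR) in KO and -1.06 (SE 0.14, adjusted p = 6.04e-07 by edgeR) in WT livers. Its signalling partner Il6st had 0.41 and 0.49 and Nfkb1 0.91 and 0.67, called higher in both genotypes. Between KO and WT livers 0 genes of the vitamin K and regulator lists were called on either diet by edgeR, with 0 and 2 of them on HFMCD and 2 and 2 on chow at an unadjusted p under 0.05. No relation between these genes and the 38 was tested.

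Cfd, the protease factor D of the alternative route, is made mainly by fat cells, and it was present in few livers. It was listed at 0 counts in all 4 KO HFMCD and all 4 WT HFMCD livers, where 3 counts would be 0.109 to 0.124 CPM. On chow it had 393 counts (16.6 CPM) in KO replicate 1, 4.79 CPM in KO replicate 7 and 389 counts (21.7 CPM) in WT replicate 3, against 0 to 3 counts in the other 10 chow livers. Adipoq, the gene of adiponectin, had 100, 24 and 71 counts in those 3 livers and 0 or 1 elsewhere, and Plin1 had 75, 24 and 90 counts against 0 to 4 elsewhere. Lep was at 0 in every library. The 7 adipocyte markers summed to 81, 68 and 70.4 CPM in the 3 livers, against 29 to 44.8 CPM in the other 18. Dmbt1, a gene of glandular epithelium, was at 95.6, 54.6 and 41.7 CPM in the same livers and at 27.6 CPM in WT chow replicate 5, against at most 0.596 CPM elsewhere. Ttn, a muscle gene, was at 331 CPM in KO chow replicate 7, against at most 0.732 CPM elsewhere. The part of other tissue in KO chow replicates 1 and 7 and WT chow replicates 3 and 5 was not tested. Leaving out KO chow replicates 1 and 7, or these and WT chow replicates 3 and 5, left 0 of the 37 tested genes called between KO and WT livers on chow and moved the diet calls by at most the gain of F13b and the loss of C3 in WT livers.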

How the data were processed

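RNA from 21 whole mouse livers was sequenced, and the authors deposited raw counts per gene and library. Per the submitters' processing notes the tools were CASAVA 2.17, STAR 2.6.1d and featureCounts 1.6.1 on GRCm38, with no roles stated. The annotation and the strand setting of the counting are not given in the sources used here. The 38 genes, the pathway and marker lists and the genes described were chosen with earlier results of these data known. All 38 are described, with the value of every HFMCD liver and the lowest, median and highest value of the larger chow groups for those called in a diet comparison and for the 5 with the smallest p in each comparison that called fewer than 5.

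Groups follow the genotype and diet of the labels. Counts from the deposited tables were fitted in 1 model of 4 group means over all 21 libraries with edgeR 4.0.16 (R 4.3.3): filterByExpr, TMM scaling, robust quasi-likelihood fit and two-sided F test, Benjamini-Hochberg over 15677 of 55418 genes. The SE is the absolute log2 fold change over the square root of F. RPKM used union exon lengths of GENCODE M21, in which all 55418 symbols were found. Among 48 pairs of libraries within groups, 0 were identical. Alternatives were DESeq2 1.42.0, limma-voom 3.58.1, other scalings, filters and sets of libraries. The fit was checked on simulated data. Floors of 3 counts cover counting error only. Promoters came from the RefSeq table on GRCm38.p6.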

Additional observations from a re-analysis of the deposited data

Results flagged for a closer look

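Within the groups of 4 to 7 livers, 7 of 150 sets of values held a liver that stood apart from the rest by Dixon's criterion at 95%, where about 1 in 20, or 7.5 of 150, would be flagged by chance. Masp2 stood at 225.2 CPM in KO chow replicate 2. C8b stood at 157.6 CPM in WT HFMCD replicate 3. F7 was low in WT HFMCD replicate 1 (54.26 CPM) and high in KO chow replicate 2 (130.7 CPM). F10 was at 431.1 CPM in KO HFMCD replicate 3. Cfd reached 16.55 CPM in KO chow replicate 1 and 21.75 CPM in WT chow replicate 3, the livers that also held Adipoq and Plin1 counts. The calls of the diet comparisons for Masp2 in KO livers and for F7 and F10 in both genotypes were the same with each of these livers left out.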

How the results depend on the processing

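Across 786 pairs of an alternative and a gene among those with the largest change or smallest p in a comparison, 781 kept their direction and side of the threshold, 5 passed it newly and 0 were lost or reversed. Of the 25 diet calls in WT livers, 22 held in all 18 alternatives, and of the 23 in KO livers, 21 held in all 20. Those lost somewhere were C3, Masp2 and Mbl2 in WT and Fgg and Mbl1 in KO livers, and 0 changed direction. Called in some alternative only were C1ra, C4b, C8b, F13b and Mbl1 in WT and C1s1, C2, C4b, C8b and F13b in KO livers. No scaling moved the median of all genes by more than 0.1 on the log2 scale.

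The calls of the knockout comparisons over all genes moved most. For KO against WT on chow the share of tested genes called, 2.17% as reported, was 4.55% by DESeq2, 0.734% by limma-voom, 0.0141% with only the chow groups in the fit, 0.926% without KO chow replicates 1 and 7, and 1.22% without those and WT chow replicates 3 and 5. Leaving out 1 library gave 0.313% to 3.91% and 0 to 1 of the 37, and the count moved by over 1.5 times without any 1 of KO chow replicates 1, 3, 4 and 6 and WT chow replicates 3 to 6. For KO against WT on HFMCD, 0.319% as reported, it was 1.23% by DESeq2, 2.09% by limma-voom, 0.0895% with no low-count filter, 2.05% with only the HFMCD groups, 0.204% with RLE and 0.179% with upper-quartile scaling. Leaving out any 1 of the 8 HFMCD libraries gave 0.00626% to 0.1% and 0 of the 37. Of the 37, 1 gene, C8g, was called by DESeq2, by limma-voom and with only the HFMCD groups. For the difference between diets, 0% as reported, it was 0.631% by DESeq2, 0.0765% by limma-voom, 0.016% with no filter, 0.54% without KO chow replicates 1 and 7, and 0.4% without all 4 chow livers named. There, leaving out 1 library gave 0% to 0.0513% and 0 of the 37, and DESeq2 called 1 of the 37, F2. In the diet comparisons leaving out 1 library gave 22 to 25 of the 37 in KO livers (65.3% to 69.9% of all genes) and 23 to 27 in WT livers (57.9% to 61.6%). The cause of these moves was not tested.

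Relative to total counts, the 38 genes held 4.115% in KO HFMCD and 4.158% in WT HFMCD livers, against 4.327% in KO chow and 4.361% in WT chow livers. Without mitochondrial genes in the total they held 4.382% in KO HFMCD and 4.401% in WT HFMCD livers, against 4.515% in KO chow and 4.539% in WT chow livers, so the gap between diets was smaller on both totals than on the TMM-scaled one. No paired analysis was possible because the labels number animals, every liver came from a different animal, and the replicate numbers used here only name livers in listing order. At 42 to 169 counts per library, Cfb had the fewest counts of the 37 tested genes. Whether its low counts reflect the exons it shares with Gm20547 was not tested.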

Other observations

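Markers of endothelial cells and platelets, which use or regulate these plasma proteins, were also measured. Of 8 endothelial markers, 4 (50%) were called higher in KO and 5 (62.5%) in WT livers for HFMCD against chow, and 0 lower, beside 69.7% of all tested genes called either way in KO and 62.5% in WT livers (33.7% and 29% higher). The endothelial list summed to 395.4 to 412 CPM in KO HFMCD and 416 to 480.8 CPM in WT HFMCD livers, against 239.4 to 386.9 CPM in KO chow and 205 to 333.6 CPM in WT chow livers. Lyve1, a sinusoidal endothelial gene, had a log2 fold change of 1.497 in KO (edgeR adjusted p = 0.000394) and 1.71 in WT livers (edgeR adjusted p = 0.000215). Of 8 platelet and megakaryocyte markers 3 passed the low-count filter. Of these Pf4, which macrophages also express, was called higher at 2.84 in KO and 2.94 in WT livers, and Itga2b, the platelet integrin chain that binds fibrinogen, was called lower at -0.93 and -0.52. The platelet list summed to 6.42 to 8.06 CPM in KO HFMCD and 6.22 to 8.56 CPM in WT HFMCD livers, against 4.79 to 9.17 CPM in KO chow and 4.91 to 7.32 CPM in WT chow livers, and overlapped between diets.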
